A study of Nothobranchius furzeri with 6 samples.

Results

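The late step of adult retinal ageing, from 12 to 18 weeks of life, was examined in single cells of the neural retina of the African turquoise killifish (Nothobranchius furzeri), a fish whose short life makes it a model of ageing. The 18-week-old and 12-week-old libraries were taken by their labelled age, which gave 4 of the 6 libraries of the series (2 per age) and 23021 of its 37243 cells. All fish were untreated wild-type females of the inbred strain GRZ-AD, and the retinas of 2 fish were pooled in each 12- or 18-week-old library, so that the spread between libraries is not that between single fish. The retinal pigment epithelium (RPE) was stripped off, the neural retina was dissociated with papain, and transcripts were captured with 10x Genomics v3 chemistry, which reads the 3' end. The 6-week-old libraries, of 3 fish each, entered the fits to share 1 estimate of the spread and are given where they place a change. The files carry the authors' cell type for every cell, and counts were summed per library and type. Of 12 types, 10 held at least 10 cells in every library and were compared, with 22974 cells at 12 and 18 weeks.

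In the vertebrate retina, rods and cones turn light into an electrical signal, horizontal and bipolar cells receive it at the first synapse, and amacrine and retinal ganglion cells shape it and send it to the brain. Müller glia span the whole tissue, recycle transmitter, supply lipid and cholesterol to neurons and react to damage. Oligodendrocytes wrap axons in myelin, and the immune cells are microglia and macrophages. Differentiating cells come from the stem cell niche at the retinal margin, which keeps adding cells in fish throughout life.

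The 12-week-old libraries held 6611 and 6287 cells (replicates 1 and 2) and the 18-week-old libraries 5319 and 4804 cells, with 17393089 to 20521922 unique molecular identifiers (UMIs, tags that count each captured transcript a single time) per library. Between 6 and 17 cell barcodes were shared by any 2 of these 4 libraries. Of 103 marker entries, 78 were highest in the type they mark; among the exceptions GAD1A, listed for amacrine cells, was highest in horizontal cells. Rods made up 9.14% and 10.3% of cells at 12 weeks (Wilson 95% intervals 8.47 to 9.85 and 9.55 to 11.1) and 14.7% and 11.3% at 18 weeks (13.8 to 15.7 and 10.4 to 12.2). Immune cells made up 2.80% and 1.83% at 12 weeks and 4.27% and 3.33% at 18 weeks, and ganglion cells 2.77% and 3.75% against 2.07% and 2.27%. For these 3 types the ages did not overlap, but 2 libraries against 2 cannot give a two-sided exact permutation p below 0.333, and the shares of the other 7 tested types overlapped. Shares add up to the whole, so a rise of rods lowers the others, and intervals cover counting error only. Depth per cell also moved with age in some types: the median UMIs per cell were 5962 and 5751.5 in cones at 12 weeks and 4754 and 3861 at 18 weeks, and they were lower at 18 weeks in both libraries of rods and immune cells as well. They were higher at 18 weeks in both libraries of Müller glia (3222 and 3694 against 4045 and 4000), amacrine cells and differentiating cells.

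Gene expression was compared by type to see where the late step changes the retina. Bipolar cells, Müller glia, cones and horizontal cells held most of the calls, with 180, 116, 111 and 111 called genes. Differentiating cells held 29 (0.337% of the genes tested), 5 higher (0.058%) and 24 lower (0.279%). Rods held 27 (0.249%), 9 higher (0.083%) and 18 lower (0.166%), and oligodendrocytes 19 (0.3%), 2 higher (0.0316%) and 17 lower (0.268%). Amacrine cells held 17 (0.122%), 10 higher (0.0719%) and 7 lower (0.0503%). The fewest were found in ganglion cells, with 9 (0.074%), 5 higher (0.0411%) and 4 lower (0.0329%), and in immune cells, with 7 (0.116%), 3 higher (0.0498%) and 4 lower (0.0664%). These counts do not rank the types by how much they changed, since the types differed in summed UMIs. A 12- or 18-week-old library held 4915998 to 7123989 UMIs in bipolar cells, 610523 to 1293262 in ganglion cells and 394769 to 729375 in immune cells. The part of this in the counts was not tested. A gene was called where edgeR's quasi-likelihood test on the summed counts gave a Benjamini-Hochberg adjusted p under 5% within its type. In all, 626 of 108708 gene and type pairs were called (0.576%), 251 higher and 375 lower at 18 weeks, and 412 of the 626 differed by at least 1 on the log2 scale. Calls were mostly falls in bipolar cells (121 of 180, where 1.16% of genes were called, 0.381% higher and 0.78% lower) and horizontal cells (82 of 111, 0.984%, with 0.257% higher and 0.727% lower). They were mostly rises in cones (67 of 111, 0.981%, with 0.592% higher and 0.389% lower). They were split in Müller glia (62 higher and 54 lower, 0.913%). Without the authors' cluster 10, one of those annotated as bipolar, bipolar cells had 171 called genes (1.12%), 57 higher (0.372%) and 114 lower (0.744%). These counts moved with single libraries: 142 of the 626 calls were present in every fit that left 1 of the 6 libraries out, 35 of them in Müller glia, 32 in bipolar cells and 30 in cones.

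**Figure D1:**
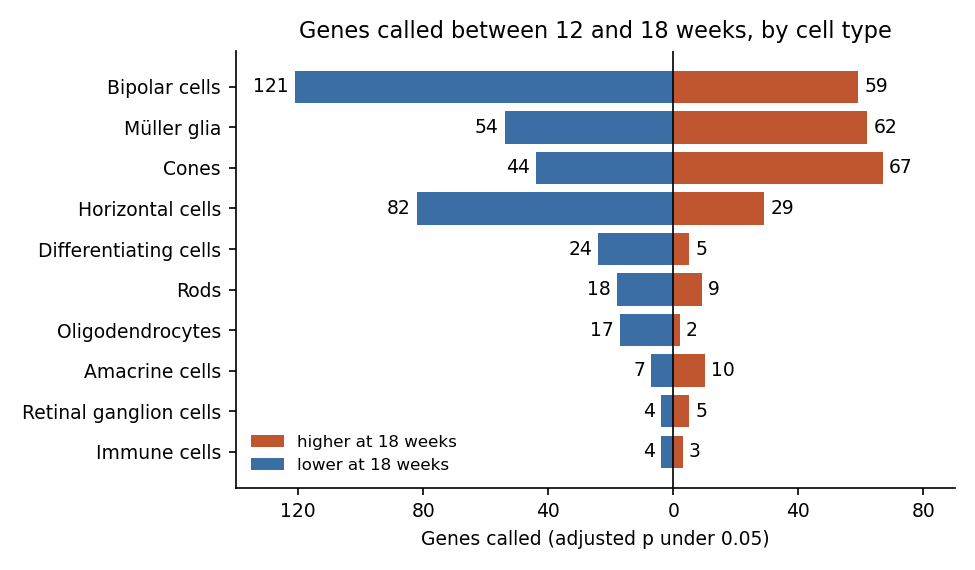
Number of genes called higher and lower at 18 than at 12 weeks in each cell type (edgeR, adjusted p under 5%, 2 libraries per age). Bipolar cells had 59 rises and 121 falls, whereas cones had 67 rises and 44 falls.

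Levels are given as normalised counts (CPM, the UMIs of a gene as a rate of all UMIs of that type in a library), scaled with edgeR, for replicates 1 and 2 in that order. Fold changes are log2 values of 18 over 12 weeks with their standard error. Where a call was lost in a fit without 1 library, that library follows with the adjusted p that its removal left, and a call given with its adjusted p and no such library was present in every such fit. Levels are said not to overlap where both libraries of one age lay above both of the other. This held for 39.6% of all gene and type pairs tested, and for 42.4% of genes in Müller glia, so it adds little by itself. Of the 412 genes called in any type, 102 were called in 2 or more types, 2 of them in both directions.

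The changes shared by the most types were falls of RNAs that make up the ribosome and the transcription machinery. 7SK, a small nuclear RNA that holds back the elongation factor P-TEFb, fell in all 10 types. In bipolar cells it stood at 635 and 563 CPM at 12 weeks and 41.2 and 49.2 CPM at 18 weeks, against 633 and 560.2 CPM at 6 weeks. Both 18-week-old libraries lay far below the other 4 (log2 fold change −3.72 ± 0.14, adjusted p 2.12e-08), and the share of bipolar cells with at least 1 7SK UMI went from 65.4% and 68.3% to 8.32% and 12.1%. Over the 10 types its log2 fold change ran from −3.81 in horizontal cells to −2.52 in differentiating cells, and every one of these calls was present without each library. The 18S entry (SSU_rRNA_eukarya), an RNA of the small ribosomal subunit, fell in all 10 types by 1.38 (Müller glia) to 2.25 (bipolar cells) on the log2 scale. The 28S entry, of the large subunit, fell in 9 types, and the 5.8S entry in 5. These RNAs lack the poly(A) tail that the library chemistry primes on, as a rule.

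As a group, 34 of the 76 tested pairs of a type and 1 of the 8 ribosomal or small RNA entries fell and none rose (0.345% of all pairs fell), with a median log2 fold change of −1.25 beside 0.00 over all genes tested. Their summed share of a library's UMIs was 1.96% and 2.00% at 6 weeks, 2.39% and 2.05% at 12 weeks and 0.687% and 0.522% at 18 weeks. The 18-week-old libraries thus stood apart from the other 4 in every type at once. An effect of age and one of libraries prepared together cannot be told apart. The same holds for every change between ages in this report, not for these entries alone. Leaving these entries out of the counts and totals left 572 calls in place of 626.

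Other falls ran through many types. XLOC_004068 fell in 8 types, Nfu_p_1_017672 (XLOC_013508) and Nfu_g_1_026687 in 7 each. Nfu_p_1_040542, OLA.26123 (XLOC_012028) and SI:CH211-113A14.10 (XLOC_006575) fell in 5 each. The names of these entries do not tell what they code for. Other entries named Nfu_p_1_017672, OLA.26123 or SI:CH211-113A14.10 were called lower in fewer types, and reads could have been split between them. PPP1R35, a centriole protein, fell in 4 types (−1.43 to −0.84). Nfu_g_1_026687 stood at 1559.8 and 1176 CPM in bipolar cells at 12 weeks and 421 and 304 CPM at 18 weeks (log2 fold change −1.92 ± 0.17, adjusted p 0.000118), and its fall was larger there than in the mean of the other types (difference −0.67 ± 0.09, adjusted p 0.00940 with limma). It was not called in differentiating cells, where its log2 fold change was the smallest of the 10 types (−0.42, adjusted p 0.700).

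**Figure D2:**
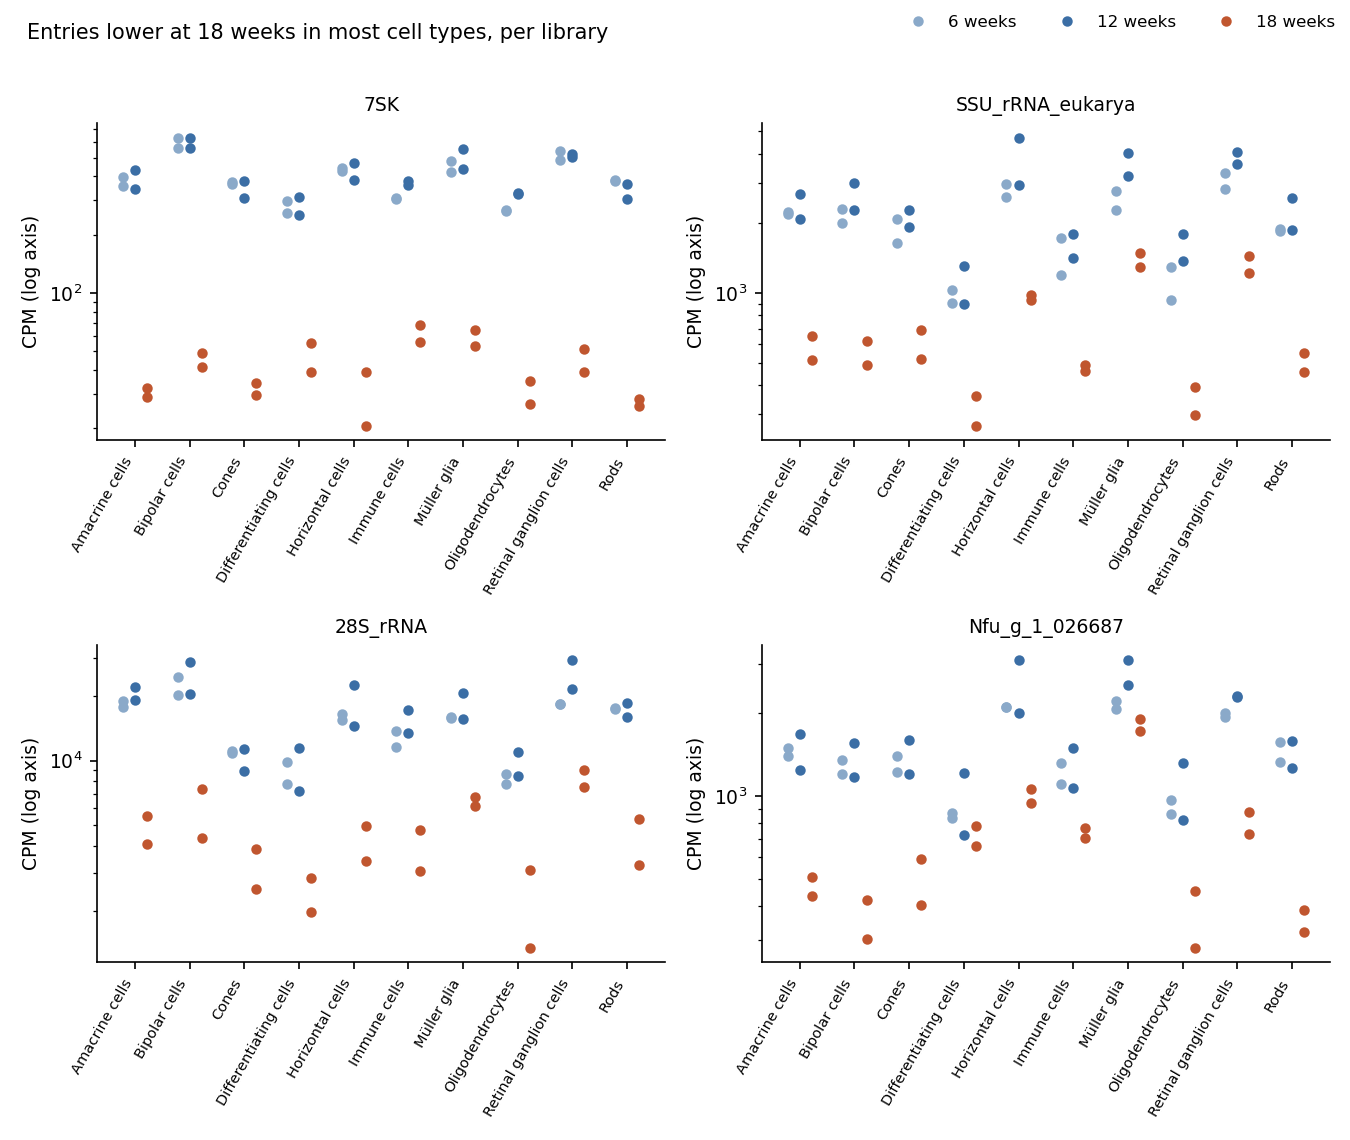
Levels (CPM, log axis) of 7SK, the 18S and 28S ribosomal RNA entries and Nfu_g_1_026687 in each cell type; each point is 1 library at 6, 12 or 18 weeks. In bipolar cells 7SK lay between 560 and 635 CPM in the 6- and 12-week-old libraries and at 41.2 and 49.2 CPM at 18 weeks.

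Histone genes also fell together. Of 156 tested pairs of a type and a histone entry, 21 fell and none rose (median −0.24, with 126 of 156 below 0), 8 of them in every fit without 1 library. Differentiating cells held 7 of these falls among 18 entries (0.279% of all genes fell there), with a median of −1.28. All 7 carry the name HIST1H2BD(2OF2), a core histone H2B. The name covers 12 entries, between which reads could have been split. One of the 7, XLOC_007376, was called lower in 5 types and lay below 0 in all 10. As for the small RNA entries, an effect of age and one of libraries prepared together cannot be told apart. The entry XLOC_005766 stood at 196 and 189 CPM at 12 weeks and 30.03 and 21.8 CPM at 18 weeks. Its fall left no overlap (log2 fold change −2.82 ± 0.29, adjusted p 0.000193) and was larger than in the other types (−1.49 ± 0.24, adjusted p 0.0457 with limma). XLOC_013973 fell further, from 72.6 and 78.8 to 7.51 and 6.23 CPM (−3.39 ± 0.40, adjusted p 0.000475). Of 42 cell cycle and neurogenesis genes tested in differentiating cells, 1 fell (FABP7A) and none rose, with a median of −0.05. In bipolar cells 7 of 21 histone entries fell (0.78% of all genes fell there), among them H1F0, the linker histone of resting cells, from 552 and 693 to 361 and 313 CPM (−0.89 ± 0.13, adjusted p 0.00666, lost without 18-week-old replicate 2 at 0.0952). H1F0 had already been higher at 6 weeks (1287 and 1387 CPM), and it fell in cones (−0.71) and horizontal cells (−0.85) too. Differentiating cells of 18-week-old replicate 1 held a summed immune marker level of 284 CPM against 31.5 to 45.1 in the other 3 libraries of these ages, and its part in their changes was not tested.

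Rises shared by several types were fewer: 10 genes rose in at least 4 types, and 4 of these were lower at 12 weeks than at both other ages. For these as well, an effect of age and one of libraries prepared together cannot be told apart. HELRODRAFT_181249, an entry with no role given in the files, rose in 7 of the 8 types that tested it, by 1.57 to 3.06. In bipolar cells it stood at 22.7 and 26.3 CPM at 6 weeks, 7.95 and 7.30 CPM at 12 weeks and 26.1 and 38.6 CPM at 18 weeks. The late rise (log2 fold change 2.10 ± 0.21, adjusted p 0.000186) followed an early fall from 6 to 12 weeks (−1.69 ± 0.21, adjusted p 0.00664), and both steps share the 12-week-old libraries. The late step minus the early step was 3.79, adjusted p 0.000579. NECAB2, a neuronal calcium-binding protein, rose in cones, Müller glia, rods and differentiating cells. In cones it stood at 54.1 and 34.4 CPM at 6 weeks, 4.26 and 12.9 CPM at 12 weeks and 54.8 and 39.7 CPM at 18 weeks (2.57 ± 0.34, adjusted p 0.000436). In ganglion cells, by contrast, its mean was 383 CPM at 12 weeks and 385 CPM at 18 weeks, and the ganglion cell change lay below that of the other types (difference −1.60 ± 0.21, adjusted p 0.0322 with limma).

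The same course was seen for LOC107373925 (4 types), Nfu_g_1_010034 (5 types) and Nfu_p_1_030969. LOC107373925 in bipolar cells went from 45.01 and 46.2 CPM at 6 weeks to 10.02 and 5.05 at 12 weeks and 46.8 and 44.7 at 18 weeks (2.63 ± 0.21, adjusted p 3.29e-05). Nfu_p_1_030969, highest in bipolar cells, went from 189 and 185 through 58.8 and 78.01 to 309.5 and 294 CPM there (2.14 ± 0.13, adjusted p 3.67e-06). In both, the 6- and 18-week-old libraries lay together above the 12-week-old pair. Among genes with a known role, CHRM3A, a muscarinic acetylcholine receptor, and DSCAMB, an adhesion molecule that spaces retinal neurites, took this course in rods, both chosen after their values were seen. CHRM3A stood at 101 and 80.03 CPM at 6 weeks, 24.9 and 18.4 CPM at 12 weeks and 64.1 and 61.02 CPM at 18 weeks (1.53 ± 0.24, adjusted p 0.00532, lost without 18-week-old replicate 1 at 0.0585), and DSCAMB at 58.4 and 51.3 CPM at 6 weeks, 15.7 and 20.9 CPM at 12 weeks and 51.1 and 46.8 CPM at 18 weeks (1.41 ± 0.24, adjusted p 0.00822, lost without 18-week-old replicate 1 at 0.110). The late step was tested against the early step in every type: 166 of 108708 pairs differed (0.153%), with opposite signs of the steps in 144 of them. Opposite signs are favoured by this test itself, which picks pairs whose steps differ and uses the 12-week-old libraries in both steps. The share of opposite signs over all pairs is not given, so the 144 do not measure how common a reversal was. Bipolar cells held 53 of these (0.342%), cones 30 (0.265%), horizontal cells 24 (0.213%), rods 20 (0.185%), Müller glia 16 (0.126%), differentiating cells 11 (0.128%), amacrine cells 4 (0.0288%), immune cells 4 (0.0664%), oligodendrocytes 2 (0.0316%) and ganglion cells 2 (0.0164%).

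**Figure D3:**
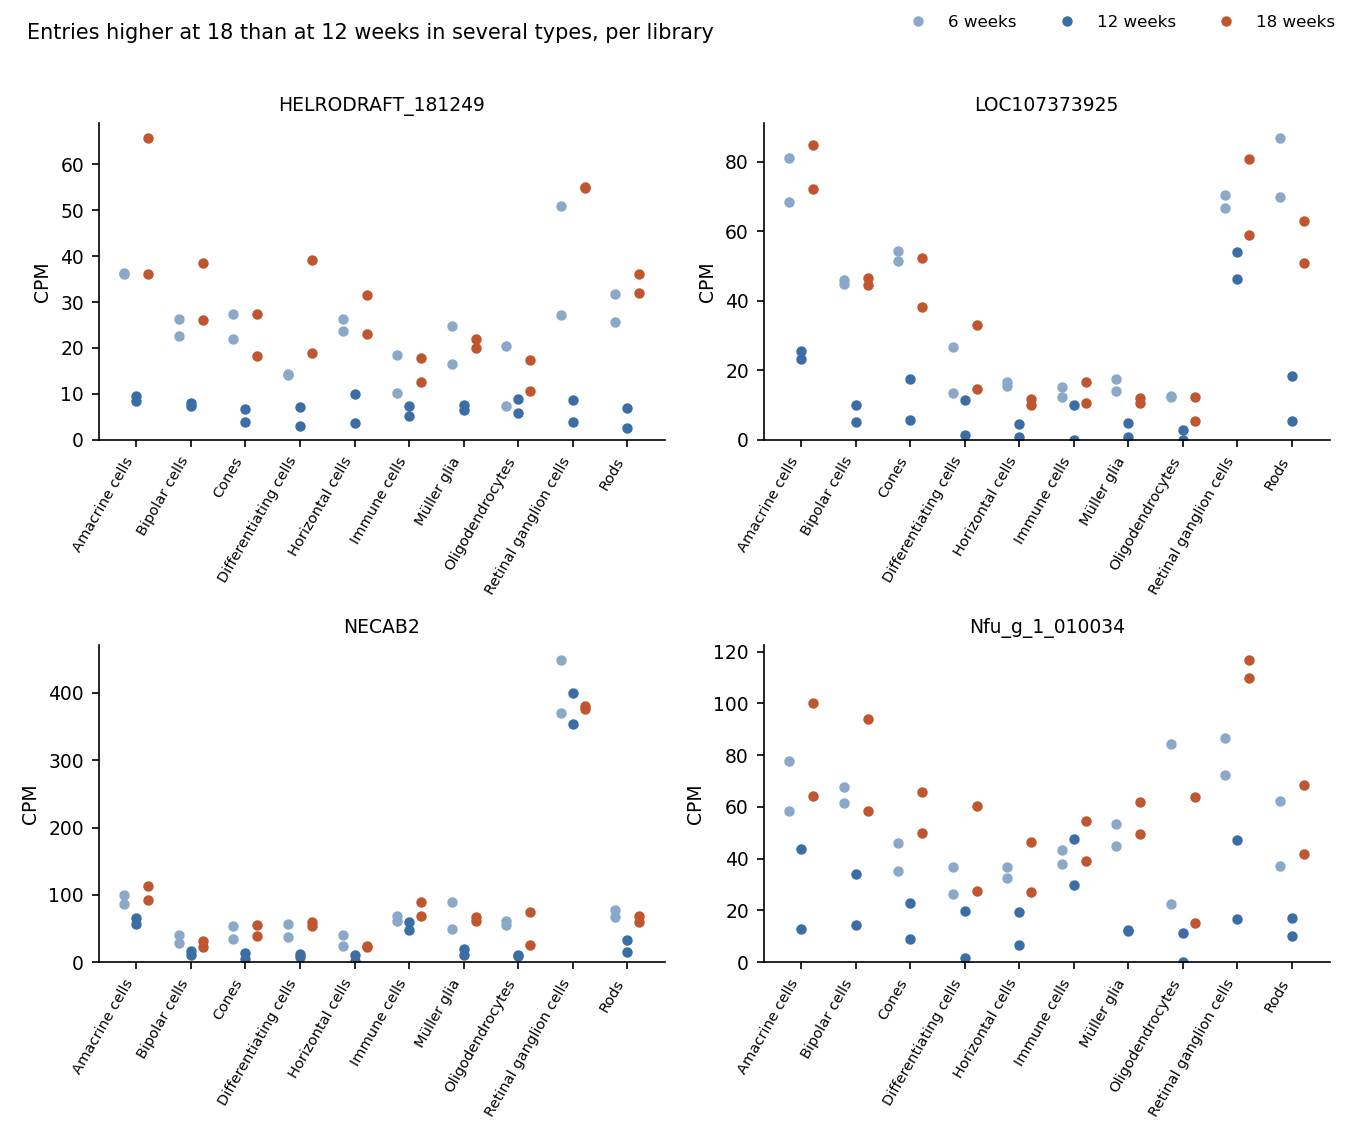
Levels (CPM, linear axis) of HELRODRAFT_181249, LOC107373925, NECAB2 and Nfu_g_1_010034 in each cell type; each point is 1 library at 6, 12 or 18 weeks. In bipolar cells LOC107373925 lay between 44.7 and 46.8 CPM in all 6- and 18-week-old libraries and at 10.0 and 5.05 CPM at 12 weeks.

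Other shared rises did not start from such a low. PBX3A, a homeodomain transcription factor, rose in bipolar, horizontal, cone and differentiating cells by 0.96 to 1.08. In bipolar cells it stood at 619 and 807 CPM at 12 weeks and 1245 and 1589.8 CPM at 18 weeks, with no overlap (log2 fold change 0.99 ± 0.15, adjusted p 0.00719, lost without 12-week-old replicate 1 at 0.0570 and 18-week-old replicate 2 at 0.0876). In differentiating cells it stood at 202 and 239.7 CPM at 12 weeks and 484 and 449 CPM at 18 weeks (1.08 ± 0.20, adjusted p 0.0285, lost without 12-week-old replicate 1 at 0.133 and 18-week-old replicate 1 at 0.136), and in horizontal cells at 127 and 147 CPM at 12 weeks and 242 and 289.9 CPM at 18 weeks (0.96 ± 0.14, adjusted p 0.00362, lost without 18-week-old replicate 2 at 0.109). Nfu_g_1_007454, an entry with no name, rose in 5 types. Its level was highest in Müller glia, with 222 and 345 CPM at 6 weeks, 1879 and 1185 at 12 weeks and 3414 and 2829 at 18 weeks (1.03 ± 0.22, adjusted p 0.0343, lost without 12-week-old replicate 2 at 0.329 and 18-week-old replicate 1 at 0.166). In horizontal cells it went from 39.7 and 16.99 to 540.0 and 143 CPM (3.59 ± 0.48, adjusted p 0.00179), more than in the other types (difference 1.79 ± 0.24, adjusted p 0.00447 with limma). Nfu_g_1_021966, also without a name, rose in 5 types by 0.97 to 1.60. ZC3HDC1L, which the authors equate with optn, rose in 5 types, most in horizontal cells, from 2.51 and 1.42 to 59.9 and 19.2 CPM (4.28 ± 0.62, adjusted p 0.00287). It was not called in Müller glia (0.43, adjusted p 0.340), where its change lay below that of the other types (difference −1.49 ± 0.27, adjusted p 0.0209 with limma). In cones it went from 23.4 and 18.1 to 61.3 and 46.4 CPM (1.37 ± 0.21, adjusted p 0.00158) and in ganglion cells from 19.98 and 15.2 to 90.2 and 70.6 CPM (2.19 ± 0.28, adjusted p 0.0119, lost without 12-week-old replicates 1 at 0.0652 and 2 at 0.152 and 18-week-old replicate 1 at 0.0666).

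Interferon-stimulated genes rose in Müller glia. Type I interferon makes cells express proteins that block viral replication, such as the ubiquitin-like modifier ISG15, the radical SAM enzyme RSAD2 (viperin) and its partner CMPK2, which together yield a nucleotide that stops viral polymerases. Of 12 antiviral effectors tested in Müller glia, 6 rose and none fell (0.488% of all genes rose there), and all 12 had a log2 fold change above 0 (median 1.53, beside 0.00 over all genes). ISG15(2OF2) stood at 5.34 and 0.470 CPM at 12 weeks and 149 and 63.5 CPM at 18 weeks. Both 18-week-old libraries lay far above all libraries of the younger ages (log2 fold change 5.15 ± 0.50, adjusted p 6.81e-05). RSAD2 stood at 5.78 and 0.470 CPM at 12 weeks and 96.6 and 76.9 CPM at 18 weeks (log2 fold change 4.74 ± 0.38, adjusted p 7.68e-06). CMPK2 went from 7.56 and 1.88 to 27.9 and 40.7 CPM (2.81 ± 0.40, adjusted p 0.00169). ZNFX1, a helicase that senses viral RNA, rose in both steps, from 13.2 and 13.5 CPM at 6 weeks through 73.8 and 58.2 at 12 weeks to 167 and 243 at 18 weeks (1.63 ± 0.19, adjusted p 0.000385). PARP14 (2.41 ± 0.49, adjusted p 0.0276, lost without 12-week-old replicates 1 at 0.144 and 2 at 0.226 and 18-week-old replicates 1 at 0.0912 and 2 at 0.445) and the helicase HELZ2 (0.92 ± 0.21, adjusted p 0.0468, lost without 6-week-old replicates 1 at 0.0613 and 2 at 0.0660, 12-week-old replicate 2 at 0.405 and 18-week-old replicates 1 at 0.0948 and 2 at 0.282) completed the 6, and each of them rested on several single libraries.

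Sensors and brakes of the same response moved with them. Of 16 interferon signalling genes tested in Müller glia, 4 rose and none fell (median 0.43), beside 0.488% of all genes that rose there. SOCS1(1OF2), which shuts off cytokine receptors and is itself induced by them, stood at 5.34 and 5.64 CPM at 12 weeks and 49.96 and 26.7 CPM at 18 weeks, without overlap (log2 fold change 2.81 ± 0.35, adjusted p 0.000495). The RNA sensors DHX58 (1.71 ± 0.27, adjusted p 0.00430, lost without 12-week-old replicate 2 at 0.0568) and IFIH1 (2.77 ± 0.57, adjusted p 0.0300, lost without 12-week-old replicates 1 at 0.0560 and 2 at 0.248 and 18-week-old replicate 1 at 0.380) rose, as did TRIM25, a ubiquitin ligase of the RNA-sensing pathway (1.04 ± 0.21, adjusted p 0.0237, lost without 12-week-old replicates 1 at 0.137 and 2 at 0.0871 and 18-week-old replicates 1 at 0.156 and 2 at 0.0590). Of the MHC class I genes, B2M(1OF2), the light chain, went from 205 and 163 to 359.8 and 289.7 CPM in Müller glia (0.82 ± 0.18, adjusted p 0.0385, lost without 12-week-old replicates 1 at 0.0532 and 2 at 0.352 and 18-week-old replicates 1 at 0.289 and 2 at 0.0540). It was the 1 call among 52 pairs of that list, beside 0.576% of all pairs called.

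ISG15(2OF2) and RSAD2 were found in a minority of Müller glia, and in more than single cells. ISG15(2OF2) had at least 1 UMI in 6 of 638 and 1 of 489 Müller glia at 12 weeks, and in 58 of 467 and 26 of 361 at 18 weeks, or 12.4% (Wilson 95% interval 9.73 to 15.7) and 7.20% (4.96 to 10.3). At 18 weeks the cell with the most ISG15(2OF2) held 33.1% and 11.4% of the UMIs of its library. RSAD2 was found in 13 and 1 Müller glia at 12 weeks and in 65 and 47 at 18 weeks (13.9% and 13.0%). The same cells tended to hold both: at 18 weeks RSAD2 was present in 26 of 58 and 15 of 26 Müller glia with ISG15(2OF2) (44.8% and 57.7%), against 9.54% and 9.55% of the other Müller glia. Depth per cell was not matched in this contrast, and its part was not tested. Rods of the 18-week-old libraries had ISG15(2OF2) in 5 of 784 and 3 of 542 cells (0.638% and 0.554%), and those of the 12-week-old libraries in 0 of 604 and 0 of 646. Median depths at 18 weeks were 1944.5 and 1886.5 UMIs in rods against 4045 and 4000 in Müller glia. Whether the UMIs in rods came from free RNA or from the rods was not tested. The summed immune cell markers in Müller glia stood at 207 and 239 CPM at 12 weeks and 257 and 129 CPM at 18 weeks, and so overlapped. Those of dendritic and B cells stood at 6.18 and 3.26 CPM at 12 weeks and 11.4 and 11.1 CPM at 18 weeks, without overlap, with 3 of the 7 entries at 0 and none called, and their part in the result was not tested. The change of Müller glia was larger than that of the other types for ISG15(2OF2) (difference 3.90 ± 0.44, adjusted p 0.000225), RSAD2 (3.14 ± 0.57, adjusted p 0.0209) and SOCS1(1OF2) (2.34 ± 0.38, adjusted p 0.0139; limma on differences within a library).

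**Figure D4:**
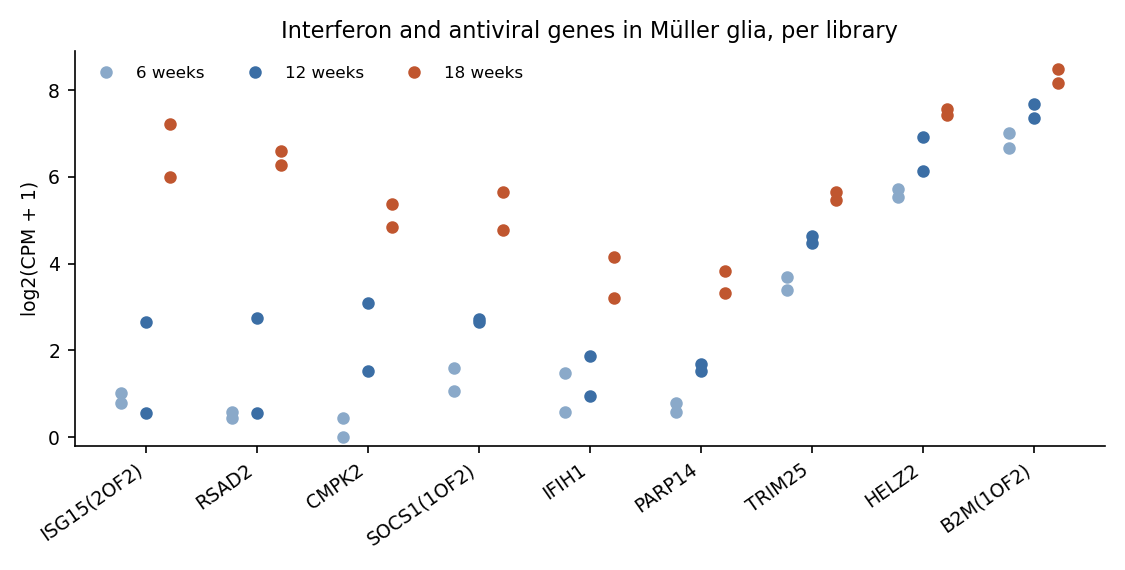
Levels of 8 antiviral and interferon signalling genes and B2M(1OF2) in Müller glia (log2(CPM+1), log scale), each point 1 library at 6, 12 or 18 weeks. ISG15(2OF2) and RSAD2 lay below 6 CPM in all 6- and 12-week-old libraries and between 63.5 and 149 CPM at 18 weeks.

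In neurons a few members of the same lists rose: HELZ2 alone of the antiviral list, and TRIM25, IRF3 and IRF9 of the interferon signalling list. Over the 10 types, Müller glia included, 9 of 40 antiviral pairs (median 0.86) and 11 of 104 interferon signalling pairs (median 0.30) rose. None fell, beside 0.231% of all pairs that rose. All calls of other members of the 2 lists were in Müller glia. HELZ2 also rose in bipolar, horizontal and ganglion cells. In ganglion cells it stood at 24.98 and 25.5 CPM at 12 weeks and 98.4 and 71.9 CPM at 18 weeks (1.74 ± 0.29, adjusted p 0.0481, lost without 6-week-old replicate 1 at 0.0594, 12-week-old replicates 1 at 0.276 and 2 at 0.299 and 18-week-old replicate 1 at 0.193), in horizontal cells at 6.53 and 5.66 CPM at 12 weeks and 27.8 and 22.05 CPM at 18 weeks (2.02 ± 0.31, adjusted p 0.00396, lost without 18-week-old replicate 1 at 0.0785). IRF3, the transcription factor that switches interferon genes on, had 2 and 1 UMIs in cones at 12 weeks and 30 and 23 at 18 weeks, a ratio of 23.0 (95% counting interval 7.46 to 115), and the call was present without each library (adjusted p 0.000596). IRF3 rose in horizontal cells (3.70 ± 0.76, adjusted p 0.0294, lost without 18-week-old replicate 1 at 0.334) and bipolar cells (2.73 ± 0.52, adjusted p 0.0240, lost without 12-week-old replicates 1 at 0.112 and 2 at 0.0865 and 18-week-old replicate 1 at 0.0692) as well. TRIM25 had no UMI in horizontal cells at 12 weeks and 51 and 19 at 18 weeks, at least 22.5-fold more against a floor of 3 counts over the age group (adjusted p 0.00961, lost without 18-week-old replicate 1 at 0.158). In ganglion cells it had 1 and 1 UMIs at 12 weeks and 15 and 16 at 18 weeks (ratio 26.9, interval 6.84 to 232; adjusted p 0.0357), a call that any 1 missing library ended (adjusted p 0.0790 to 0.384). In bipolar and horizontal cells replicate 1 at 18 weeks was the higher of the pair for each of these genes.

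Müller glia held further rises, of which CD68, OLA.5421 and VAMP4 were chosen after their values were seen. CD68, a lysosomal glycoprotein best known from macrophages, stood at 3.56 and 2.91 CPM at 6 weeks, 11.1 and 9.86 at 12 weeks and 64.4 and 53.5 at 18 weeks (2.49 ± 0.23, adjusted p 4.44e-05). Its mean over the 4 libraries in Müller glia was 13.6% of that in immune cells, and the rise exceeded that of the other types (1.80 ± 0.30, adjusted p 0.0139). OLA.5421, which RefSeq names tspan36, a tetraspanin, stood at 9.78 and 9.39 CPM at 12 weeks and 112 and 124 CPM at 18 weeks (3.62 ± 0.21, adjusted p 1.76e-07). CTSS, the lysosomal protease cathepsin S, had 0 and 1 UMIs at 12 weeks and 41 and 10 at 18 weeks (ratio 58.5, counting interval 10.0 to 2356; adjusted p 0.00961, lost without 12-week-old replicate 1 at 0.0657 and not tested without 18-week-old replicate 1, where it was below the count filter). VAMP4, a SNARE protein of the Golgi network that was highest in Müller glia, went from 339 and 347 CPM at 6 weeks through 558 and 700.4 to 1384 and 1399 CPM (1.15 ± 0.15, adjusted p 0.000858). BX572630.2 went from 22.7 and 9.39 to 119.6 and 121 CPM (2.89 ± 0.31, adjusted p 0.000168). Immune cells made up more of the cells at 18 weeks (4.27% and 3.33% against 2.80% and 1.83%), while the summed immune markers in Müller glia overlapped between the ages. The part of immune cell RNA in the rises of CD68 and CTSS was not tested.

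Genes of cholesterol synthesis fell in Müller glia. The pathway builds cholesterol from acetyl-CoA, and its genes are switched on together by the factor SREBP2 when sterols run low. Of 25 sterol genes tested in Müller glia, 6 fell and none rose (0.425% of all genes fell there), and 24 lay below 0, with a median of −0.82. SQLE, the squalene epoxidase, stood at 159.7 and 112 CPM at 6 weeks, 37.4 and 32.4 CPM at 12 weeks and 8.17 and 5.57 CPM at 18 weeks (log2 fold change −2.32 ± 0.31, adjusted p 0.000913). HMGCRA, the rate-limiting HMG-CoA reductase, stood at 607 and 511 CPM at 6 weeks, 276 and 261 CPM at 12 weeks and 109 and 108 CPM at 18 weeks (−1.31 ± 0.16, adjusted p 0.000398). For both genes every library lay below all libraries of the age before it. The prenyl chain enzyme FDPS stood at 52.5 and 44.6 CPM at 12 weeks and 16.3 and 20.1 CPM at 18 weeks (−1.42 ± 0.22, adjusted p 0.00430, lost without 18-week-old replicate 1 at 0.0675), and the sterol demethylase CYP51 at 102 and 93.5 CPM at 12 weeks and 53.3 and 30.6 CPM at 18 weeks (−1.20 ± 0.22, adjusted p 0.0156, lost without 12-week-old replicate 1 at 0.0633 and 18-week-old replicate 2 at 0.240). The methyl sterol oxidase MSMO1 fell (−0.87 ± 0.18, adjusted p 0.0318, lost without 12-week-old replicates 1 at 0.152 and 2 at 0.0925 and 18-week-old replicate 2 at 0.461) as well.

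The late fall of these genes continued an earlier one. From 6 to 12 weeks 11 of the 25 genes had fallen in Müller glia (median −1.01), with the 12-week-old libraries shared by both steps. In that early step 75 of all 12711 genes tested in Müller glia were called, counting both directions. SQLE and FDPS fell more in Müller glia than in the mean of the other types (differences −1.59 ± 0.23, adjusted p 0.00704 and −1.21 ± 0.22, adjusted p 0.0209), and this was not called for HMGCRA (adjusted p 0.145). In rods 17 of 19 sterol genes lay below 0 (median −0.60) and 1 fell (0.166% of all genes fell there): INSIG1, the membrane protein that holds SREBP back when sterols are ample. It stood at 16.8 and 32.8 CPM at 12 weeks and 5.44 and 3.99 CPM at 18 weeks (−2.36 ± 0.40, adjusted p 0.00854, lost without 18-week-old replicates 1 at 0.0585 and 2 at 0.0593), a larger change than in the other types (−1.59 ± 0.28, adjusted p 0.0246). In amacrine cells, cones and horizontal cells the medians were 0.01, −0.05 and −0.06, and no sterol gene was called in any type but Müller glia and rods. Over the 10 types 7 of 180 sterol pairs fell (median −0.26), beside 0.345% of all pairs.

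**Figure D5:**
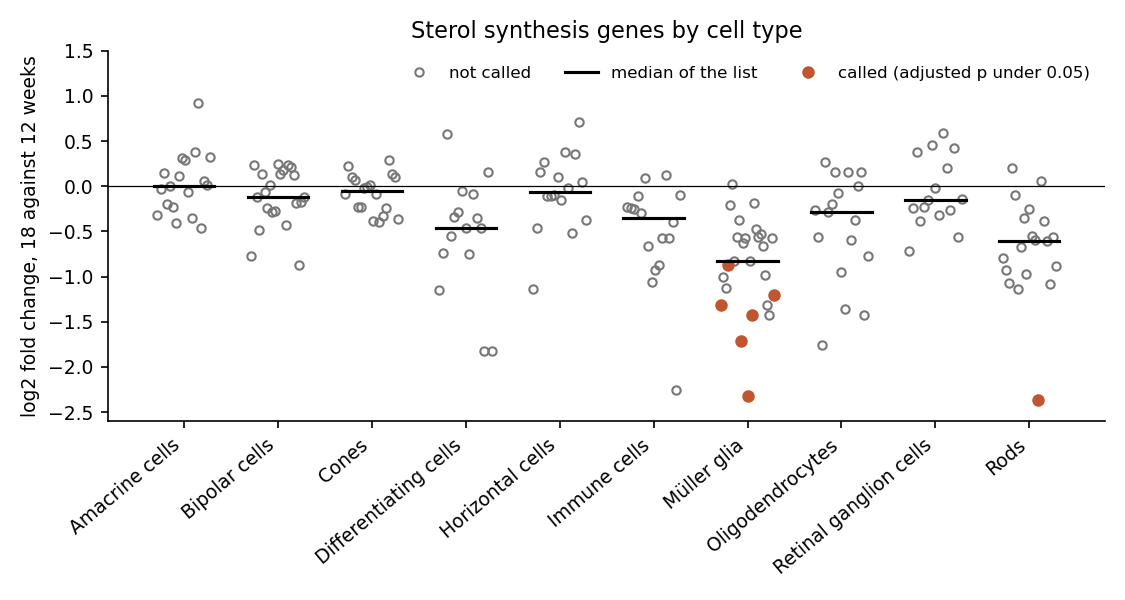
Log2 fold change (18 over 12 weeks) of each sterol synthesis gene in each cell type; filled points are called genes and the bar is the median. Müller glia (median −0.82, 6 called) and rods (median −0.60, 1 called) lay lowest.

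Genes that bind and carry fatty acids fell in several types. Of 237 lipid handling pairs, 13 fell and 2 rose, with a median of −0.02, beside 0.345% of all pairs that fell and 0.231% that rose. FABP7A, the brain fatty acid-binding protein of glia and progenitors, had a fold change below 0 in all 10 types and fell in 5. It was highest in oligodendrocytes, and in rods, where its mean over the 4 libraries was 37.9% of that level, it stood at 968 and 1050.3 CPM at 6 weeks, 620.5 and 597 CPM at 12 weeks and 197 and 155 CPM at 18 weeks (log2 fold change −1.79 ± 0.21, adjusted p 0.000553). In differentiating cells it stood at 206 and 278 CPM at 12 weeks and 52.6 and 49.9 CPM at 18 weeks (−2.23 ± 0.24, adjusted p 0.000249) and in Müller glia at 56.04 and 97.2 CPM at 12 weeks and 28.8 and 10.03 CPM at 18 weeks (−1.94 ± 0.34, adjusted p 0.00961, lost without 12-week-old replicate 2 at 0.0896 and 18-week-old replicate 2 at 0.0600). The fall in bipolar cells was smaller (−0.64 ± 0.10, adjusted p 0.0108, lost without 12-week-old replicate 1 at 0.0755 and 18-week-old replicates 1 at 0.0512 and 2 at 0.104) than that of the other types (difference 0.74 ± 0.14, adjusted p 0.0382). FABP3, its relative from heart and muscle, fell in rods from 70.9 and 64.2 to 25.5 and 26.8 CPM (−1.37 ± 0.22, adjusted p 0.00615, lost without 18-week-old replicates 1 at 0.158 and 2 at 0.0882) and in Müller glia from 85.4 and 92.5 to 49.5 and 39.00 CPM (−1.001 ± 0.18, adjusted p 0.0112, lost without 12-week-old replicate 2 at 0.0871 and 18-week-old replicate 2 at 0.229). SMPDL3A, a phosphodiesterase of sphingolipids and nucleotides, fell in cones from 76.4 and 102 to 39.8 and 37.9 CPM (−1.19 ± 0.18, adjusted p 0.00184). In Müller glia, where it was highest, it fell from 3300.2 and 3724 to 2477 and 1799 CPM (−0.72 ± 0.16, adjusted p 0.0468, lost without 12-week-old replicates 1 at 0.0955 and 2 at 0.328 and 18-week-old replicate 2 at 0.585), after 9116 and 8786 CPM at 6 weeks. The 2 rises were of LDLRAP1B, an endocytic adaptor, in horizontal cells (1.46 ± 0.31, adjusted p 0.0377, lost without 18-week-old replicate 1 at 0.326) and cones (1.31 ± 0.26, adjusted p 0.0181, lost without 18-week-old replicate 1 at 0.228).

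An entry named RLBP1B and HSPA8 fell in Müller glia as well. RLBP1B codes for a retinaldehyde-binding protein. Its entry XLOC_002898, which RefSeq names rlbp1a, is minor beside the RLBP1A entry of Müller glia (8180 CPM over the pooled UMIs of the 4 libraries). XLOC_002898 stood at 141 and 139 CPM at 12 weeks and 62.9 and 45.7 CPM at 18 weeks, with no overlap (log2 fold change −1.36 ± 0.20, adjusted p 0.00242). The change of the main RLBP1A entry is not given here, so the fall is that of the minor entry alone. HSPA8, a constitutive HSP70 chaperone, stood at 12.7 and 17.1 CPM at 6 weeks, 61.8 and 52.1 at 12 weeks and 16.3 and 23.4 at 18 weeks, and so was high at 12 weeks alone (−1.53 ± 0.23, adjusted p 0.00225). DNAJB5(2OF2), an HSP40 partner of HSP70 proteins, took the opposite course, with 40.7 and 58.6 CPM at 6 weeks, 9.78 and 13.2 CPM at 12 weeks and 24.02 and 33.4 CPM at 18 weeks (1.31 ± 0.29, adjusted p 0.0441, lost without 12-week-old replicates 1 at 0.220 and 2 at 0.0940 and 18-week-old replicate 2 at 0.365). These were the only 2 of 247 heat shock and chaperone pairs that were called, beside 0.576% of all pairs. REPS2, an endocytic adaptor, fell from 121 and 68.6 to 32.2 and 21.7 CPM (−1.80 ± 0.30, adjusted p 0.00610, lost without 18-week-old replicate 2 at 0.0540).

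DBI and NKX6-2 fell in oligodendrocytes. DBI, the acyl-CoA-binding protein, stood at 5528 and 4846 CPM at 6 weeks, 3359 and 3661 CPM at 12 weeks and 1077 and 823 CPM at 18 weeks. The fall (log2 fold change −1.87 ± 0.21, adjusted p 0.000346) was larger than in the other types (−1.52 ± 0.22, adjusted p 0.00259). NKX6-2, a transcription factor of myelinating cells that was chosen after its value was seen, stood at 155 and 159 CPM at 12 weeks and 61.3 and 40.01 CPM at 18 weeks (−1.54 ± 0.29, adjusted p 0.0385, lost without 18-week-old replicates 1 at 0.128 and 2 at 0.227). HAPLN2, the link protein of the matrix at nodes of Ranvier, rose instead, from 21.5 and 24.8 CPM at 6 weeks through 130.4 and 89.2 to 251 and 400.1 CPM at 18 weeks (1.49 ± 0.27, adjusted p 0.0246, lost without 12-week-old replicate 2 at 0.0539 and 18-week-old replicate 2 at 0.226). The Notch ligand DLL4(2OF2) was the other of the 2 rises (1.19 ± 0.22, adjusted p 0.0246, lost without 12-week-old replicate 2 at 0.158 and 18-week-old replicates 1 at 0.129 and 2 at 0.143), against 17 falls (0.3% of genes were called). The summed oligodendrocyte markers were 30134 and 30844 CPM at 12 weeks and 25483 and 25207 CPM at 18 weeks. The 18-week-old replicate 2 held 26 oligodendrocytes, against 57 to 85 in the other 3 libraries.

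Cones had the most rises of any type. Immediate early genes, which neurons switch on within minutes of a stimulus, were called in cones alone: 4 of 25 rose and 1 fell there (0.592% and 0.389% of all genes), while the median of the list was −0.15. JUN, a subunit of the AP-1 transcription factor, stood at 29.5 and 31.01 CPM at 12 weeks and 101 and 71.4 CPM at 18 weeks, without overlap (log2 fold change 1.53 ± 0.19, adjusted p 0.000258), and its change exceeded that of the other types (1.44 ± 0.17, adjusted p 0.00875). ATF3, an AP-1 partner induced by stress, stood at 101 and 60.1 CPM at 12 weeks and 169 and 137 CPM at 18 weeks (0.91 ± 0.19, adjusted p 0.0249, lost without 12-week-old replicate 2 at 0.0874 and 18-week-old replicate 1 at 0.222). DUSP1, a phosphatase of MAP kinases, rose too (0.85 ± 0.20, adjusted p 0.0480, lost without 12-week-old replicate 1 at 0.345 and 18-week-old replicates 1 at 0.237 and 2 at 0.143), as did MYCB from a low level (2.17 ± 0.47, adjusted p 0.0265, lost without 12-week-old replicate 1 at 0.0569 and 18-week-old replicates 1 at 0.121 and 2 at 0.206). NR4A3, a nuclear receptor, fell from 27.7 and 27.2 to 10.3 and 9.77 CPM (−1.44 ± 0.24, adjusted p 0.00394). After each cell was thinned to 1000 UMIs, the log2 fold change of JUN was 1.29 and not called (adjusted p 0.248), and cones had 13 called genes in place of 111. The part of depth in this was not tested.

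ABI3BP, a secreted matrix-binding protein, rose in cones, where 0.981% of all genes tested were called. It stood at 25.6 and 32.9 CPM at 12 weeks and 91.7 and 112 CPM at 18 weeks, with 31.1 and 31.9 CPM at 6 weeks (log2 fold change 1.80 ± 0.18, adjusted p 2.93e-05). The rise exceeded that of the other types (1.47 ± 0.20, adjusted p 0.0195). SOX11A, a transcription factor of young neurons, went from 40.5 and 50.6 to 117 and 90.99 CPM (1.21 ± 0.19, adjusted p 0.00186). CCND2A, a cyclin of the G1 phase, went from 101 and 89.7 to 167 and 157 CPM (0.76 ± 0.16, adjusted p 0.0199, lost without 18-week-old replicates 1 at 0.157 and 2 at 0.0920). SLC2A1A, the glucose transporter GLUT1 that feeds photoreceptors, went from 366 and 395 to 569 and 634 CPM (0.66 ± 0.14, adjusted p 0.0294, lost without 12-week-old replicate 1 at 0.0850 and 18-week-old replicates 1 at 0.126 and 2 at 0.357). KCNQ3, a potassium channel subunit chosen after its value was seen, went from 26.99 and 32.9 to 101 and 61.7 CPM (1.47 ± 0.22, adjusted p 0.00113). Among the falls, GUCA1D, a calcium sensor that sets photoreceptor cyclase activity, went from 158 and 130.3 to 91.7 and 64.1 CPM (−0.88 ± 0.18, adjusted p 0.0184, lost without 12-week-old replicate 1 at 0.0694 and 18-week-old replicate 2 at 0.346), the 1 call among 14 cone phototransduction genes in cones. INS, listed by that name in the files, went from 78.1 and 89.2 to 43.7 and 38.5 CPM (−1.01 ± 0.18, adjusted p 0.00846, lost without 18-week-old replicate 2 at 0.113).

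EGFRA, a receptor of epidermal growth factor, changed in opposite directions in the photoreceptor types; it was chosen after its values were seen. In cones, where it was highest, it stood at 138 and 146 CPM at 12 weeks and 219.8 and 273 CPM at 18 weeks (0.79 ± 0.16, adjusted p 0.0196, lost without 18-week-old replicate 2 at 0.299). In rods it stood at 50.4 and 71.6 CPM at 12 weeks and 18.01 and 22.8 CPM at 18 weeks (−1.59 ± 0.25, adjusted p 0.00615, lost without 18-week-old replicate 1 at 0.148), and the rod change lay below that of the other types (−1.65 ± 0.26, adjusted p 0.00573).

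Bipolar cells had the most calls (1.16% of the genes tested there, 0.381% higher and 0.78% lower) and the most cells. SLC25A15B, a mitochondrial ornithine carrier, stood at 87.6 and 77.9 CPM at 12 weeks and 33.2 and 36.1 CPM at 18 weeks, without overlap (log2 fold change −1.25 ± 0.11, adjusted p 0.000126). It was called lower in cones and horizontal cells too, and lay below 0 in all 10 types (−1.31 to −0.72). Synaptic genes mostly stayed under the threshold (2 of 60 fell, none rose, median −0.08). CPLX3, the complexin of ribbon synapses, stood at 30.9 and 33.3 CPM at 12 weeks and 16.5 and 16.1 CPM at 18 weeks (−0.98 ± 0.13, adjusted p 0.00296), and SLC17A6B, a vesicular glutamate transporter, at 7.26 and 6.31 CPM at 12 weeks and 2.79 and 1.94 CPM at 18 weeks (−1.54 ± 0.31, adjusted p 0.0335, lost without 6-week-old replicates 1 at 0.0557 and 2 at 0.0526, 12-week-old replicates 1 at 0.145 and 2 at 0.0694 and 18-week-old replicates 1 at 0.0512 and 2 at 0.298). GABRA5(2OF2), a subunit of the GABA-A receptor chosen after its value was seen, fell from 29.7 and 31.6 to 10.9 and 10.7 CPM (−1.50 ± 0.16, adjusted p 0.000466), more than in the other types (−1.34 ± 0.19, adjusted p 0.00940). BOC, a co-receptor of Hedgehog signals and likewise chosen after its value was seen, rose from 238 and 264 to 421 and 505 CPM (0.88 ± 0.12, adjusted p 0.00237). CU041398.1 fell (−1.62 ± 0.33, adjusted p 0.0327, lost without 12-week-old replicate 1 at 0.136 and 18-week-old replicate 2 at 0.286) and SI:CH211-193K19.2 rose (0.92 ± 0.14, adjusted p 0.00666, lost without 18-week-old replicate 2 at 0.0876). The glycolytic enzymes ENO2(2OF2) (−1.43 ± 0.28, adjusted p 0.0254, lost without 12-week-old replicate 1 at 0.146 and 18-week-old replicates 1 at 0.0512 and 2 at 0.230) and ALDOCA (−0.85 ± 0.18, adjusted p 0.0377, lost without 6-week-old replicates 1 at 0.0516 and 2 at 0.0525, 12-week-old replicates 1 at 0.0548 and 2 at 0.186 and 18-week-old replicates 1 at 0.110 and 2 at 0.171) fell, out of 40 genes of glucose and energy supply. SLC17A6B is a ganglion cell marker, and its mean level over the 4 libraries in bipolar cells was 0.272% of that in ganglion cells. The summed ganglion cell markers in bipolar cells were 105 and 66.9 CPM at 12 weeks and 87.2 and 61.0 CPM at 18 weeks, and so overlapped, while the share of ganglion cells was lower at 18 weeks (2.07% and 2.27% against 2.77% and 3.75%). The summed amacrine markers in bipolar cells were 108 and 114 CPM at 12 weeks and 75.1 and 65.6 CPM at 18 weeks, without overlap, with 2 of 10 called lower. The part of other cells' RNA in these falls was not tested. The summed bipolar markers were 12420 and 12073 CPM at 12 weeks and 10029 and 10164 CPM at 18 weeks.

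In horizontal cells GNG13(1OF2), a G protein gamma subunit, stood at 150.2 and 119 CPM at 12 weeks and 47.6 and 31.4 CPM at 18 weeks, without overlap (log2 fold change −1.78 ± 0.19, adjusted p 0.000204). It was called lower in bipolar cells as well (−1.32) and lay below 0 in all 4 types that tested it. SI:DKEY-175M17.7 fell from 65.8 and 90.6 to 39.6 and 37.2 CPM (−1.03 ± 0.19, adjusted p 0.0148, lost without 18-week-old replicates 1 at 0.159 and 2 at 0.278), and PRDX3, the peroxiredoxin of mitochondria, from 94.9 and 101 to 65.6 and 49.4 CPM (−0.78 ± 0.15, adjusted p 0.0251, lost without 18-week-old replicate 2 at 0.378). PRDX3 was the 1 call among 256 antioxidant pairs, beside 0.576% of all pairs called.

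Most genes of ribosomal proteins and of the respiratory chain had fold changes below 0, and few passed the test. Of 760 ribosomal protein pairs 554 lay below 0, with a median of −0.14 over the 10 types, and 12 fell and none rose (0.345% of all pairs fell). The median was −0.32 in rods (75 of 76 below 0), −0.31 in cones (74 of 76), −0.27 in amacrine cells, −0.26 in bipolar cells (72 of 77) and −0.25 in horizontal cells (74 of 76), and it was 0.07 in Müller glia (58 of 77 above 0). Members of a list can move together, so these counts are not separate evidence. Their summed share of UMIs overlapped between 12 and 18 weeks in bipolar cells (8.53% and 7.23% against 7.42% and 6.41%) and amacrine cells (7.40% and 5.68% against 6.81% and 4.55%). It did not overlap in rods (4.86% and 3.96% against 3.94% and 3.26%), cones, horizontal cells or Müller glia. RPS20 in horizontal cells stood at 709 and 663 CPM at 12 weeks and 428 and 342 CPM at 18 weeks (−0.83 ± 0.13, adjusted p 0.00389, lost without 18-week-old replicate 2 at 0.144). RPS20 and RPS28 fell in bipolar cells, cones and horizontal cells, and RPL36 in bipolar and horizontal cells. Of 592 respiratory chain pairs 506 lay below 0 (median −0.26) and 7 fell. NDUFA11, a subunit of complex I, fell in horizontal cells from 356 and 369 to 259 and 236 CPM (−0.55 ± 0.12, adjusted p 0.0330, lost without 12-week-old replicate 2 at 0.0703 and 18-week-old replicates 1 at 0.165 and 2 at 0.378) and in bipolar cells from 221 and 204 to 153 and 142 CPM (−0.53 ± 0.11, adjusted p 0.0377, lost without 6-week-old replicates 1 at 0.0593 and 2 at 0.0606, 12-week-old replicates 1 at 0.178 and 2 at 0.0613 and 18-week-old replicates 1 at 0.0763 and 2 at 0.286). None of the 12 ribosomal protein calls and none of the 7 respiratory chain calls was present in every fit without 1 library.

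Other lists held few changes, beside 0.576% of all pairs called. LAMP1, a lysosomal membrane protein, rose in cones (0.70 ± 0.16, adjusted p 0.0457, lost without 12-week-old replicates 1 at 0.0832 and 2 at 0.0584 and 18-week-old replicates 1 at 0.0501 and 2 at 0.529) and with CTSS was 1 of 2 rises among 129 lysosome and complement pairs (median 0.24). SRSF3(2OF2), a splicing factor, rose in bipolar cells (0.51 ± 0.10, adjusted p 0.0308, lost without 6-week-old replicates 1 at 0.0651 and 2 at 0.0672, 12-week-old replicates 1 at 0.112 and 2 at 0.118 and 18-week-old replicate 2 at 0.251), the 1 call among 416 pairs of splicing genes, and COL8A2, a basement membrane collagen, rose there as well (0.89 ± 0.19, adjusted p 0.0495, lost without 6-week-old replicates 1 at 0.0701 and 2 at 0.0712, 12-week-old replicates 1 at 0.194 and 2 at 0.102 and 18-week-old replicates 1 at 0.102 and 2 at 0.222). No gene was called among 312 circadian clock, 327 proteasome and 273 rod phototransduction pairs, with medians of −0.07, −0.09 and −0.07.

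A few rises rested on very few cells. Of the 251 rises, 11 had over 50% of the UMIs of an 18-week-old library in 1 cell. The same share is not compared for the 375 falls, since some of them had only 1 UMI in an 18-week-old library. The 11 rises fell in 3 types. They were 7 of the 10 rises of amacrine cells, all 3 of the immune cells and 1 of the 62 of Müller glia. In immune cells (0.116% of genes called) Nfu_p_1_005505 had no UMI at 12 weeks, 128 UMIs in 4 of 227 cells and 265 UMIs in 1 of 160 cells at 18 weeks. CCL-C5A, a chemokine, had no UMI at 12 weeks, 34 UMIs in 2 cells and 27 in 1 cell at 18 weeks. The falls in immune cells were 7SK, the 18S and 28S entries and CU306817.2, which went from 143 and 121 to 26.8 and 36.2 CPM (−2.08 ± 0.30, adjusted p 0.0265, lost without 12-week-old replicate 1 at 0.239 and 18-week-old replicate 1 at 0.211). In amacrine cells (0.122% called) PRPH, the neuronal filament peripherin, went from 3.23 and 2.51 to 50.03 and 78.8 CPM (4.50 ± 0.36, adjusted p 0.000638), but 85.5% and 93.9% of its 62 and 132 UMIs at 18 weeks lay in 1 cell of each library. HTRA1B, a secreted serine protease, went from 9.68 and 6.70 to 109.7 and 46.6 CPM (3.24 ± 0.42, adjusted p 0.0129, lost without 12-week-old replicates 1 at 0.0882 and 2 at 0.207), with 136 UMIs in 9 cells and 78 in 13 cells. ARR3(1OF2), the cone arrestin, went from 77.4 and 87.7 CPM at 6 weeks through 32.3 and 31.4 to 91.2 and 109.9 CPM in amacrine cells (1.66 ± 0.20, adjusted p 0.0124, lost without 12-week-old replicates 1 at 0.0853 and 2 at 0.121). A single cell held 55.8% and 78.8% of its UMIs at 18 weeks, and the mean level over the 4 libraries was 1.74% of that in cones. The summed cone markers in amacrine cells were 461 and 257 CPM at 12 weeks and 441 and 486 CPM at 18 weeks, and so overlapped.

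Whether a change differed from that of the other types was tested gene by gene within each library. Of 105816 pairs 141 differed (0.133%), 105 upward and 36 downward, with 60 in bipolar cells (0.435%), 27 in Müller glia (0.216%), 13 in cones (0.118%), 11 in horizontal cells (0.0989%), 11 in oligodendrocytes (0.174%), 8 in amacrine cells (0.059%), 6 in rods (0.0561%), 3 in differentiating cells (0.0348%), 1 in immune cells (0.0166%) and 1 in ganglion cells (0.00822%). At an unadjusted p under 0.05 there were 7695. The 141 are not all changes of the named type, since a difference can also come from the other types. SNCGB in bipolar cells differed by 0.64 with a log2 fold change of 0.10 there, and GAD1B in horizontal cells by 0.99 with 0.07. ISG15(2OF2) in Müller glia, by contrast, differed by 3.90 with 5.15 there.

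When all types of a library were summed, 13 of 18964 genes were called (0.0686%), 4 higher (0.0211%) and 9 lower (0.0475%). Such a sum cannot tell fewer cells of a type from less RNA per cell. 7SK stood at 492 and 429 CPM at 12 weeks and 38.01 and 43.6 CPM at 18 weeks (log2 fold change −3.50 ± 0.16, adjusted p 0.000920) and was the 1 call present without each library. GNG13(1OF2) (−1.56 ± 0.16, adjusted p 0.0289, lost without 6-week-old replicates 1 at 0.0881 and 2 at 0.0853 and 18-week-old replicate 2 at 0.0503) and SLC25A15B (−1.09 ± 0.11, adjusted p 0.0264, lost without 6-week-old replicates 1 at 0.0880 and 2 at 0.0853, 12-week-old replicates 1 at 0.0538 and 2 at 0.0519 and 18-week-old replicates 1 at 0.0650 and 2 at 0.0654) fell, as did the 18S and 5.8S entries, HIST1H2BD(2OF2), Nfu_p_1_017672 and both OLA.26123 entries. LOC107373925, HELRODRAFT_181249, Nfu_p_1_030969 and Nfu_p_1_005505 rose.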

How the data were processed

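The deposited files gave UMI counts per gene and cell and a cell annotation. Per the labels and methods, the authors made these counts with Cell Ranger 7.0.1 on a custom killifish transcriptome, kept cells with over 1000 transcripts and named types with Monocle3. Treatment of doublets is not given in the sources used here. Counts were summed per library and type and tested with edgeR 4.0.16 (R 4.3.3; TMM scaling, filterByExpr, quasi-likelihood fit over 3 ages, Benjamini-Hochberg within a type). The methods give separate biological samples of pooled fish, so p-values measure the spread between such pools. Differences between types used limma 3.58.1 on log2 CPM (prior count 2). DESeq2 1.42.0, other scaling, no filter, thinned cells, 4 libraries alone, a replicate block, small RNAs left out and each library left out were alternatives. Shares used an exact permutation test, two-sided.

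In data simulated for Müller glia (12432 genes) the test recovered 69 of 100 changes of 1 and 100 of 100 changes of 2 on the log2 scale, with 14 false calls. For ganglion cells (11845 genes) it recovered 50 and 92 of 100, with 10 false calls. The simulated spread followed the expression level alone, without a spread of each gene's own or an effect shared by a library. Changed genes were drawn from those with more counts, so these rates need not hold for the real data.

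The members and lists were chosen with earlier results of these data known. Genes were named by rule: per type the 2 largest rises and 2 largest falls among called genes with a symbol, a mean of at least 50 CPM and no overlap, genes called alike in at least 4 types, calls in the sum of all cells, and up to 4 called members per list with the largest change. CD68, OLA.5421, VAMP4, ZNFX1, DHX58, HMGCRA, CYP51, MSMO1, SMPDL3A in Müller glia, H1F0, BOC, GABRA5(2OF2), Nfu_p_1_030969 in bipolar cells, EGFRA, KCNQ3, CHRM3A, DSCAMB, NKX6-2 and PRPH were chosen after their values were seen. Symbols such as (1OF2) mark copies between which reads may have been split. Some results are not reported here.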

Additional observations from a re-analysis of the deposited data

Results flagged for a closer look

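A change in a cell type was set against the mean change of the other types with limma on differences within a library, and the named pairs given here differed past 5% adjusted. Each value below is the log2 change of the type minus that of the others, with n = 2 libraries per age. In Müller glia the difference was 3.90 for ISG15(2OF2), 3.14 for RSAD2, 2.34 for SOCS1(1OF2) and 1.495 for DNAJB5(2OF2), and it was −1.59 for SQLE and −1.21 for FDPS. In oligodendrocytes it was −1.52 for DBI and 1.48 for HAPLN2. In cones it was 1.47 for ABI3BP and 1.44 for JUN. In bipolar cells it was −1.17 for the 5.8S entry, −0.67 for Nfu_g_1_026687, 0.74 for FABP7A, whose fall was smaller there, and 1.04 for LOC107373925. It was 3.31 for HTRA1B in amacrine cells, where up to 61.5% of its UMIs in a library lay in 1 cell. It was 1.79 for Nfu_g_1_007454 in horizontal cells, −1.49 for HIST1H2BD(2OF2) (XLOC_005766) in differentiating cells and −1.59 for INSIG1 in rods. Causes of these differences were not tested.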

How the results depend on the processing

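Across all 10 types, 626 pairs were called, and 2238 with no count filter, 292 with cells thinned to 1000 UMIs, 486 with DESeq2, 803 with the replicate block and 328 to 896 when 1 library was left out. In the sum of all cells 13 genes were called, and 22 with no filter, 2 with 4 libraries alone, 33 with the block, 33 thinned, 7 without small RNAs, 248 with DESeq2 and 1 to 26 with 1 library left out. With no filter the counts were 54 in amacrine, 747 in bipolar, 280 in cone, 94 in differentiating, 289 in horizontal and 126 in immune cells, 329 in Müller glia, 118 in oligodendrocytes, 72 in ganglion cells and 129 in rods. Thinned, they were 5 in amacrine cells, 13 in cones, 14 in differentiating, 48 in horizontal and 11 in immune cells, 38 in Müller glia, 12 in oligodendrocytes and 2 in ganglion cells. With DESeq2 they were 27 in amacrine cells, 66 in cones, 13 in immune cells and 72 in Müller glia. With 4 libraries alone they were 112 in bipolar, 22 in immune and 3 in ganglion cells and 57 in rods. With the replicate block they were 302 in bipolar cells, 21 in immune cells and 51 in rods. Without small RNAs they were 1 in immune cells, 12 in oligodendrocytes and 5 in ganglion cells. With 1 library left out they ran from 4 to 33 in amacrine cells, 48 to 153 in bipolar cells, 56 to 329 in cones, 27 to 47 in differentiating cells, 23 to 179 in horizontal cells, 2 to 32 in immune cells, 60 to 131 in Müller glia, 7 to 59 in oligodendrocytes, 1 to 15 in ganglion cells and 16 to 73 in rods. The type differences (141) were 52 with a prior count of 0.5 and 82 to 454 with 1 library left out, and the step differences (166) were 147 to 330. The replicate numbers share only a number: correlations of same-numbered deviations ran from −0.26 to 0.38, and the block is given for completeness. The causes were not tested.

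The change in a type's share of cells, in percentage points, reversed when 1 library was left out for bipolar cells (−5.68 to 2.25, beside −1.71), cones (−0.12 to 1.86, beside 0.87), differentiating cells (−1.13 to 0.36, beside −0.39), horizontal cells (−0.58 to 1.08, beside 0.25), Müller glia (−1.50 to 0.37, beside −0.57) and oligodendrocytes (−0.55 to 0.50, beside −0.03). Not every alternative gave a value for each of the 227 named pairs. None reversed under an alternative that did, and 71 were called under each one that did.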
